A study of Mus musculus with 9 samples.

Results

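Transcripts of 10 receptors of the TNF receptor superfamily were followed in Tregs from the spleen of mice with and without the chaperone gp96. The receptors were taken by gene name, as *Tnfrsf4*, *Tnfrsf9*, *Tnfrsf18*, *Tnfrsf1b*, *Tnfrsf8*, *Tnfrsf25*, *Tnfrsf14*, *Tnfrsf1a*, *Cd27* and *Fas*, and all 10 were found among the 25500 entries of the expression table. KO mice carried 2 floxed alleles of *Hsp90b1*, which encodes gp96 (*Foxp3* eGFP-Cre-ERT2 *Hsp90b1* fl/fl), and WT mice carried the same tamoxifen-inducible Cre with intact *Hsp90b1* (*Foxp3* eGFP-Cre-ERT2 *Hsp90b1* WT/WT). Cre and GFP were expressed from *Foxp3*, so that deletion was directed to Tregs and both genotypes carried the modified *Foxp3* gene. Mice were 8 to 12 weeks old, both genotypes received tamoxifen at 75 mg/kg for 10 days, and 1000000 GFP+ splenic Tregs were sorted per sample. The labels hold 5 KO libraries (KO 1 to KO 5) and 4 WT libraries (WT 1 to WT 4), and values are FPKM, the fragments assigned to a gene divided by its length in kilobases and scaled by library. The study names 4 mice per genotype, and KO 2 to KO 5 were compared with WT 1 to WT 4, with KO 1 given beside them and in a comparison of all 9 libraries. KO 1 was the library left out because a second set of normalized values in the sources used here covers KO 2 to KO 5, with no reason given. This choice decided the calls of *Tnfrsf1b* and *Tnfrsf25*. The labels do not tie each library to a separate mouse, so p-values measure the spread between these libraries.

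Receptors of this family sit in the cell membrane and are engaged by trimeric ligands of the TNF superfamily. Those without a death domain, such as OX40, 4-1BB, GITR, CD27, CD30 and TNFR2, recruit TRAF adaptors and signal through both arms of the NF-kappaB pathway. In T cells they act as costimulators beside the T cell receptor. TNFR1, DR3 and Fas carry a death domain and can also recruit TRADD or FADD and caspases. Tregs are known for high surface OX40, GITR and TNFR2, which rise further with activation, and engagement of DR3 or TNFR2 expands them.

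Deletion of the targeted gene was seen in every KO library. *Hsp90b1* measured 2.73, 3.11, 3.09 and 1.77 FPKM in KO 2 to KO 5 and 2.13 FPKM in KO 1, against 62.9, 50.7, 44.4 and 51.5 FPKM in WT 1 to WT 4. KO 1 and WT 1 stood apart from the other 7 libraries. The first principal component of all genes, with 58.6% of the variance, placed KO 1 at -67.6 and WT 1 at -69.9 and the other 7 libraries between 8.88 and 26.3, and the nuclear RNA *Malat1* measured 30.6 FPKM in KO 1, 24.9 FPKM in WT 1 and 182 to 374 FPKM elsewhere. The receptors below are therefore also compared over all 9 libraries and over the 7 libraries without KO 1 and WT 1. Recovered reads numbered 12068195 to 24522263 per library. The Treg label was met by the marker genes: *Foxp3* measured 106 to 110 FPKM in KO 2 to KO 5 and 55.0 FPKM in KO 1, against 83.0 to 106 FPKM in the WT libraries. Of 10 Treg markers 3 were lower in KO Tregs (*Il2ra*, *Ikzf4* and *Lrrc32*) and 7 did not pass the test, beside 6.68% of all genes lower. The 3 became 1 when KO 2, KO 3, KO 4, WT 2, WT 3 or WT 4 was left out. They became 2 with all 9 libraries and 4 with the replicate number as a block. RNA of other spleen cells was also measured. The 12 B cell markers summed to 216 to 270 FPKM in KO 2 to KO 5 and 389 FPKM in KO 1, against 358 to 601 FPKM in WT 2 to WT 4 and 395 FPKM in WT 1, most of it *Ighm*, with *Ms4a1*, *Ebf1* and *Fcer2a* among those at 0 in some libraries. The 12 myeloid and dendritic cell markers summed to 3.82 to 10.6 FPKM in KO 2 to KO 5 and 20.1 FPKM in KO 1, against 37.3 to 38.5 FPKM in WT 2 to WT 4 and 12.7 FPKM in WT 1. Plasma cell markers (6) summed to 31.2 to 51.8 FPKM in KO 2 to KO 5 and 68 FPKM in KO 1, against 70.7 to 141 FPKM in WT 2 to WT 4 and 64.2 FPKM in WT 1. CD8 T and NK cell markers (8) summed to 21.7 to 29.3 FPKM in KO 2 to KO 5 and 61.6 FPKM in KO 1, against 34.5 to 38 FPKM in WT 2 to WT 4 and 53.9 FPKM in WT 1. Of these markers, *Ighm*, *Cd79a*, *Mzb1*, *Ighg1* and *Nkg7* were lower in KO 2 to KO 5 and *Prdm1* was higher. Some of these cells also express members of the receptor family, and their part in the differences below was not tested. In bulk RNA, fewer cells of a type and less RNA per cell cannot be told apart.

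Of the 10 receptors, 4 were lower in KO Tregs, 1 was higher and 5 did not pass the test, which was limma across all genes with a Benjamini-Hochberg adjusted p under 0.05. All 10 passed the filter on low values (more than 1 FPKM in 4 or more of the libraries). *Tnfrsf9*, *Tnfrsf8*, *Tnfrsf4* and *Tnfrsf1b* were lower and *Tnfrsf25* was higher. Among all 12237 genes tested, 6.68% were lower and 6.58% higher in KO Tregs. In the comparison of all 9 libraries, 3 receptors were lower (*Tnfrsf9*, *Tnfrsf8* and *Tnfrsf4*) and 0 higher, against 3.55% and 3.21% of all genes. The count of 0 came from limma, and *Tnfrsf25* there had an unadjusted p of 0.03. Fitted with the replicate number as a block, the same 9 libraries gave 5 lower (*Tnfrsf18* and *Tnfrsf1b* added) and 2 higher (*Tnfrsf25* and *Cd27*). In that fit 1607 of all 12312 genes tested were lower and 1841 higher, a background well above that without the block. The labels do not give such pairs. Without KO 1 and WT 1, 4 receptors were lower and 2 higher (*Tnfrsf25* and *Cd27*), against 17.1% and 19.5% of all genes, so that the background of that comparison was well above that of the 8 libraries. A fit of all 9 libraries with a term for KO 1 and WT 1 gave 6 lower and 2 higher, against 17.0% and 19.3% of all genes. The values of the KO and WT libraries did not overlap for 4 lower receptors and 1 higher among the 8 libraries compared (17.2% and 15.9% of all genes), and for 3 lower and 0 higher among all 9 (5.73% and 6.08% of all genes).

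**Figure D1:**
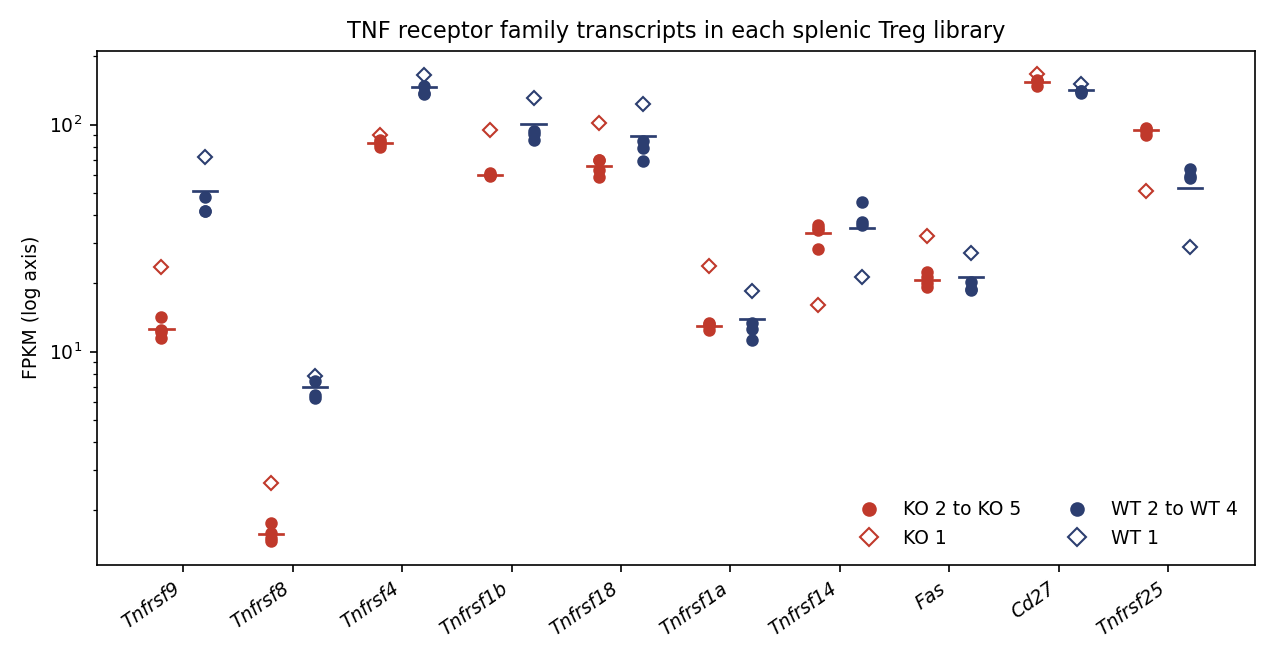
FPKM of each receptor transcript (log axis) in each library, KO left in red and WT right in blue; diamonds are KO 1 and WT 1, and the horizontal line is the mean of KO 2 to KO 5 or of WT 1 to WT 4. *Tnfrsf9*, *Tnfrsf8* and *Tnfrsf4* have all KO points below all WT points, and *Tnfrsf25* and *Tnfrsf14* are lowest in the diamonds of each genotype.

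The 3 receptors that passed in every comparison, and *Tnfrsf25*, which went the other way, all lie on chromosome 4, and the 250 bases before a RefSeq transcript start of each are shown here because 2 of them hold a kappaB motif. Sequences are from RefSeq (GRCm38.p6, the assembly of mm10), on the strand of the gene. Capitals mark every match, on either strand, to 4 motifs: the kappaB consensus, GGAAA (the core bound by NFAT), TGANTCA (AP-1) and TTCNNNGAA (STAT5). Adjoining capitals can hold overlapping matches.
Tnfrsf9, second start, chr4:150927749-150927998, plus strand: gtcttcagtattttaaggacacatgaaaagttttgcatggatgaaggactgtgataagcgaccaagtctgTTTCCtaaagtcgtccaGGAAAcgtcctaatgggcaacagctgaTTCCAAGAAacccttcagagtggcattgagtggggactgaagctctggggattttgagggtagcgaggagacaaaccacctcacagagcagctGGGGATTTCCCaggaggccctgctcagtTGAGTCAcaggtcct
Tnfrsf8, chr4:145315165-145315414, minus strand: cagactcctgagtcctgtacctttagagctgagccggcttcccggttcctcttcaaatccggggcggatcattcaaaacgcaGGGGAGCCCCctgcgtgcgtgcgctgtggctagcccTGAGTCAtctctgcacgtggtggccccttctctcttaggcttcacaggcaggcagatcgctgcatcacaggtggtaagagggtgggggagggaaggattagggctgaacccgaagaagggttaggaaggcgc
Tnfrsf4, chr4:156013445-156013694, plus strand: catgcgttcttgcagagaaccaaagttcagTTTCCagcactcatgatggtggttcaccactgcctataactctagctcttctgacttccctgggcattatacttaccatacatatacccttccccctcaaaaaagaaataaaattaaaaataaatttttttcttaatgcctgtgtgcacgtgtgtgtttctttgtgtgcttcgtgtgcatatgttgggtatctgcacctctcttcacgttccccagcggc
Tnfrsf25, first start, chr4:152115684-152115933, plus strand: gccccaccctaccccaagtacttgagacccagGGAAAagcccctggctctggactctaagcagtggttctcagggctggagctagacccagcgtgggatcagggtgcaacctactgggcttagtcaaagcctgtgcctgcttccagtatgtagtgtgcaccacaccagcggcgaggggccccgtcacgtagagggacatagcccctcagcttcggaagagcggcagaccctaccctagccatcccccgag

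The kappaB consensus was matched in 2 overlapping places of the second *Tnfrsf9* start, at -43 to -34 and -42 to -33 from the start, and in *Tnfrsf8* at -168 to -159. It was matched in none of the windows of the other 8 receptors or the first *Tnfrsf9* start, and in 3.9% of 32851 promoter windows of the same length. A GGAAA core overlapped the kappaB match of *Tnfrsf9*, at -38 to -34, and this core was held by 55.6% of all promoter windows. TGANTCA was matched at -15 to -9 in the second *Tnfrsf9* start, at -132 to -126 in *Tnfrsf8* and at -211 to -205 in *Fas*, against 6.75% of all windows. TTCNNNGAA, found in 7.02% of all windows, was matched in *Tnfrsf9*, *Tnfrsf18*, *Tnfrsf1b*, *Tnfrsf25* (second start), *Tnfrsf1a* and *Fas*. The *Tnfrsf4* window held a single GGAAA core, at -220 to -216. These are matches of letters in short windows, and binding was not measured.

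*Tnfrsf9* encodes 4-1BB (CD137), a costimulator that T cells induce on activation. It measured 12.4, 11.5, 12.2 and 14.2 FPKM in KO 2 to KO 5 and 23.6 FPKM in KO 1, against 71.7, 41.8, 48.2 and 41.8 FPKM in WT 1 to WT 4. Every KO library was below every WT library, and the highest in each genotype was KO 1 or WT 1. Its mean was 12.6 ± 1.15 FPKM in KO 2 to KO 5 and 50.9 ± 14.2 FPKM in WT 1 to WT 4 (SD, n = 4 each), 0.247 of the WT level, and the log2 fold change of FPKM + 1 was -1.90 (SE 0.17, limma adjusted p = 0.000451). This was the largest fall among the 10 receptors on that scale. It was -1.73 with all 9 libraries (adjusted p = 0.00294) and -1.73 without KO 1 and WT 1 (adjusted p = 1.21e-05). The gene spans positions 150914562 to 150946102 of the plus strand (mm10), and 458 to 597 reads were recovered for it in KO 2 to KO 5, 1402 in KO 1 and 1866 to 2819 in the WT libraries.

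*Tnfrsf8* encodes CD30, a receptor of activated lymphocytes, and was the scarcest of the 10 transcripts in both genotypes. It measured 1.76, 1.58, 1.51 and 1.46 FPKM in KO 2 to KO 5 and 2.64 FPKM in KO 1, against 7.79, 6.46, 7.44 and 6.24 FPKM in WT 1 to WT 4. All KO libraries were below all WT libraries. The mean was 1.58 ± 0.129 FPKM in KO 2 to KO 5 and 6.98 ± 0.749 FPKM in WT 1 to WT 4 (SD, n = 4 each), which is 0.226 of the WT level, the smallest such ratio among the receptors. Since the KO values lie near the added 1 FPKM, the log2 fold change of FPKM + 1, -1.63 (SE 0.09, limma adjusted p = 6.45e-05), understates the difference, and limma-voom on the recovered reads gave -2.04. The KO values rest on 72 to 92 reads in KO 2 to KO 5 and 199 in KO 1, against 364 to 401 in the WT libraries. With all 9 libraries the log2 fold change was -1.53 (adjusted p = 0.000264), and without KO 1 and WT 1 it was -1.58 (adjusted p = 1.79e-05).

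*Tnfrsf4* encodes OX40, a costimulator that Tregs carry at rest, and was the most abundant of the 10 in WT Tregs. It measured 82.1, 85.4, 80.0 and 83.9 FPKM in KO 2 to KO 5 and 90.4 FPKM in KO 1, against 166, 138, 148 and 136 FPKM in WT 1 to WT 4. The genotypes did not overlap, and KO 1 and WT 1 were close to the rest of their genotype, at 1.09 and 1.18 of the mean of its other libraries. The mean was 82.9 ± 2.31 FPKM in KO 2 to KO 5 and 147 ± 13.8 FPKM in WT 1 to WT 4 (SD, n = 4 each), 0.564 of the WT level, with a log2 fold change of -0.82 (SE 0.10, limma adjusted p = 0.00144). It was -0.79 with all 9 libraries (adjusted p = 0.00274) and -0.76 without KO 1 and WT 1 (adjusted p = 2.76e-05). Over the 18 other settings tried, the log2 fold change of *Tnfrsf4* stayed between -0.85 and -0.73 and always passed.

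*Tnfrsf18* encodes GITR and lies 9552 bp downstream of *Tnfrsf4* on the same strand. It measured 69.6, 70.2, 58.8 and 63.2 FPKM in KO 2 to KO 5 and 102 FPKM in KO 1, against 123, 78.7, 85.1 and 69.3 FPKM in WT 1 to WT 4. The groups overlapped, with KO 2 and KO 3 above WT 4 and KO 1 above WT 2 to WT 4. The log2 fold change was -0.41 (SE 0.17, 95% interval -0.81 to -0.01) and did not pass (limma adjusted p = 0.154), nor with all 9 libraries (-0.28, adjusted p = 0.615) or without KO 1 and WT 1 (-0.24, adjusted p = 0.0628). It passed where all 9 libraries were fitted with a term for KO 1 and WT 1 (-0.25, adjusted p = 0.0268) or with the replicate number as a block (-0.24, adjusted p = 0.0105). Its exons overlap *Gm16008* on the other strand, and the counting of reads by strand is not stated in the methods or labels.

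*Cd27* encodes the costimulator CD27, which naive T cells already carry, and was the most abundant of the 10 in KO Tregs. It measured 155, 157, 156 and 148 FPKM in KO 2 to KO 5 and 167 FPKM in KO 1, against 151, 138, 140 and 141 FPKM in WT 1 to WT 4. Only WT 1 reached into the KO range, above KO 5. The log2 fold change was 0.11 (SE 0.09, 95% interval -0.09 to 0.31, limma adjusted p = 0.397), and 0.13 with all 9 libraries (adjusted p = 0.639). *Cd27* passed without KO 1 and WT 1 (0.14, adjusted p = 0.0169) and with all 9 libraries and the replicate number as a block (0.15, adjusted p = 0.0327). Its exons overlap *Mir8113* on the same strand.

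The TNF receptors differed from each other. *Tnfrsf1b* encodes TNFR2, the TNF receptor without a death domain that Tregs carry at high levels. It measured 60.2, 61.1, 59.6 and 59.8 FPKM in KO 2 to KO 5 and 95.0 FPKM in KO 1, against 131, 85.4, 93.6 and 90.8 FPKM in WT 1 to WT 4. KO 2 to KO 5 lay close to each other and below all WT libraries, while KO 1 was above WT 2, WT 3 and WT 4. The mean was 60.2 ± 0.66 FPKM in KO 2 to KO 5 and 100 ± 20.9 FPKM in WT 1 to WT 4 (SD, n = 4 each), and the log2 fold change was -0.71 (SE 0.14, limma adjusted p = 0.0138). With all 9 libraries *Tnfrsf1b* no longer passed (-0.58, adjusted p = 0.121), although it did in those libraries with the replicate block (-0.54, adjusted p = 0.00164). Without KO 1 and WT 1 the fall was -0.57 (adjusted p = 5.34e-05), and without KO 2 or KO 4 alone the adjusted p was 0.0517 or 0.0527.

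*Tnfrsf1a*, which encodes TNFR1, the death domain receptor for TNF, measured 13.2, 13.3, 13.0 and 12.5 FPKM in KO 2 to KO 5 and 23.9 FPKM in KO 1, against 18.4, 12.6, 13.3 and 11.3 FPKM in WT 1 to WT 4. Apart from KO 1 and WT 1 the libraries of both genotypes lay in the same range. The log2 fold change was -0.07 (SE 0.13, 95% interval -0.38 to 0.24, limma adjusted p = 0.737), 0.10 with all 9 libraries and 0.06 without KO 1 and WT 1, and passed in none of the settings tried. The ratio of *Tnfrsf1b* to *Tnfrsf1a* within a library was 4.57, 4.59, 4.59 and 4.79 in KO 2 to KO 5 and 3.97 in KO 1, against 7.15, 6.78, 7.05 and 8.03 in WT 1 to WT 4. The ratio thus separated all 5 KO libraries from all 4 WT libraries, KO 1 and WT 1 included.

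*Tnfrsf25* encodes DR3, a death domain receptor whose ligand TL1A expands Tregs. It measured 97.1, 96.1, 93.7 and 90.2 FPKM in KO 2 to KO 5 and 50.9 FPKM in KO 1, against 28.8, 59.1, 58.1 and 64.0 FPKM in WT 1 to WT 4. KO 2 to KO 5 were above every WT library, and KO 1 was above WT 1 but below WT 2 to WT 4. The mean was 94.3 ± 3.06 FPKM in KO 2 to KO 5 and 52.5 ± 16.0 FPKM in WT 1 to WT 4 (SD, n = 4 each), 1.80 times the WT level, and the log2 fold change was 0.90 (SE 0.24, limma adjusted p = 0.0432). With all 9 libraries it was 0.72 and did not pass (adjusted p = 0.206), while it passed in those libraries with the replicate block (0.69, adjusted p = 0.00133). Without KO 1 and WT 1 it was 0.63 (adjusted p = 7.59e-05). Leaving out KO 2, KO 3, KO 4, KO 5, WT 2 or WT 3 alone also left *Tnfrsf25* above the threshold, with adjusted p between 0.0727 and 0.116.

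*Tnfrsf14* encodes HVEM, the receptor for LIGHT that also binds BTLA and CD160. It measured 34.3, 36.0, 35.1 and 28.4 FPKM in KO 2 to KO 5 and 16.0 FPKM in KO 1, against 21.4, 36.2, 37.2 and 45.7 FPKM in WT 1 to WT 4. KO 1 and WT 1 were the lowest libraries, so that the groups overlapped, while KO 2 to KO 5 were all below WT 2 to WT 4. The log2 fold change was -0.02 (SE 0.21, 95% interval -0.51 to 0.46, limma adjusted p = 0.945), -0.23 with all 9 libraries (adjusted p = 0.807) and -0.24 without KO 1 and WT 1 (adjusted p = 0.117). Only the fit with a term for KO 1 and WT 1 passed (-0.28, adjusted p = 0.0434).

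*Fas* encodes the death receptor CD95. It measured 19.2, 21.3, 20.1 and 22.4 FPKM in KO 2 to KO 5 and 32.4 FPKM in KO 1, against 27.3, 18.9, 20.2 and 18.7 FPKM in WT 1 to WT 4. The groups overlapped, and KO 1 and WT 1 were the highest of each. The log2 fold change was -0.02 (SE 0.13, 95% interval -0.31 to 0.27, limma adjusted p = 0.921), and 0.10 both with all 9 libraries and without KO 1 and WT 1. *Fas* passed in none of the settings tried, and differences within these bounds were not detectable here.

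**Figure D2:**
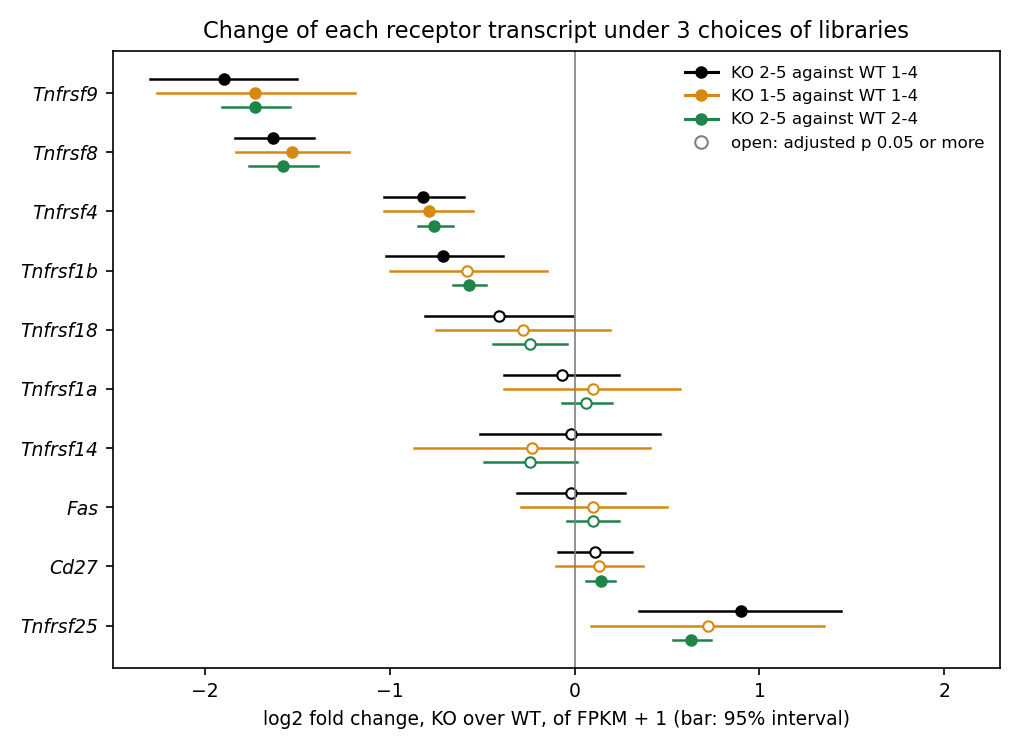
Log2 fold change of FPKM + 1, KO over WT, with its 95% interval for each receptor, under 3 choices of libraries; filled points have an adjusted p under 0.05. *Tnfrsf9*, *Tnfrsf8* and *Tnfrsf4* pass in all 3, *Tnfrsf1b* and *Tnfrsf25* pass in the 8 and the 7 libraries, and the intervals without KO 1 and WT 1 (green) are the narrowest.

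The receptors divided by how KO 1 and WT 1 departed from their genotype. *Tnfrsf9*, *Tnfrsf18*, *Tnfrsf1b*, *Tnfrsf1a* and *Fas* were higher in both, at 1.56 to 1.88 of the mean of KO 2 to KO 5 in KO 1 and 1.42 to 1.63 of the mean of WT 2 to WT 4 in WT 1. *Tnfrsf25* and *Tnfrsf14* were lower in both, at 0.54 and 0.477 in KO 1 and 0.476 and 0.538 in WT 1. *Tnfrsf8* was at 1.67 in KO 1 and 1.16 in WT 1, and *Cd27* was near 1 in both, at 1.09 and 1.08. For the receptors that passed the test, KO 1 compared with WT 1 gave ratios in the same direction as the other libraries. KO 1 over WT 1 was 0.33 for *Tnfrsf9*, against 0.286 for KO 2 to KO 5 over WT 2 to WT 4. That ratio was 0.545 against 0.589 for *Tnfrsf4*, 0.339 against 0.235 for *Tnfrsf8*, 0.724 against 0.669 for *Tnfrsf1b*, and 1.77 against 1.56 for *Tnfrsf25*. For the receptors that did not pass, it was 0.828 against 0.842 for *Tnfrsf18* and 0.746 against 0.842 for *Tnfrsf14*. It was 1.3 against 1.05 for *Tnfrsf1a*, 1.1 against 1.1 for *Cd27* and 1.19 against 1.08 for *Fas*. The shared direction thus did not set apart the receptors that passed. KO 1 and WT 1 are 1 library each, so these ratios have no replicate check.

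**Figure D3:**
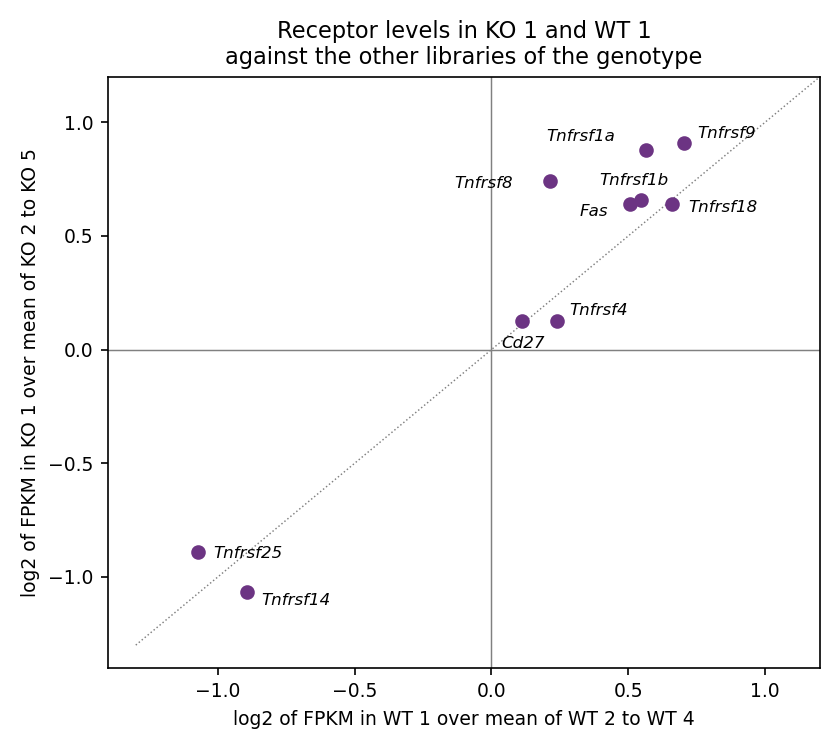
Log2 of the FPKM of each receptor in KO 1 over the mean of KO 2 to KO 5 (vertical axis) and in WT 1 over the mean of WT 2 to WT 4 (horizontal axis), 1 point per receptor, with the dotted line marking equal values. *Tnfrsf25* and *Tnfrsf14* lie below 0 on both axes and the other 8 receptors above 0 on both.

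The make-up of the receptor family differed between the genotypes. The 10 transcripts summed to 538 ± 13.7 FPKM in KO 2 to KO 5 (604 FPKM in KO 1) and 659 ± 60.2 FPKM in WT 1 to WT 4 (SD, n = 4 each). *Tnfrsf25* made up 17.5% ± 0.284 of that sum in KO 2 to KO 5 and 8.16% ± 2.92 in WT 1 to WT 4, and *Cd27* 28.6% ± 0.546 and 21.7% ± 1.07. *Tnfrsf4* made up 15.4% ± 0.436 in KO 2 to KO 5 and 22.3% ± 0.453 in WT 1 to WT 4, *Tnfrsf1b* 11.2% ± 0.181 and 15.1% ± 1.67, and *Tnfrsf9* 2.34% ± 0.266 and 7.62% ± 1.35 (SD, n = 4 each). *Tnfrsf25* made up 8.43% in KO 1, within the WT range of 3.85% to 10.2%. By mean FPKM the order in KO 2 to KO 5 was *Cd27*, *Tnfrsf25*, *Tnfrsf4*, *Tnfrsf18*, *Tnfrsf1b*, *Tnfrsf14*, *Fas*, *Tnfrsf1a*, *Tnfrsf9* and *Tnfrsf8*. In WT 1 to WT 4 it was *Tnfrsf4*, *Cd27*, *Tnfrsf1b*, *Tnfrsf18*, *Tnfrsf25*, *Tnfrsf9*, *Tnfrsf14*, *Fas*, *Tnfrsf1a* and *Tnfrsf8*. Neighbours in that order overlapped in KO 2 to KO 5 for *Tnfrsf18* and *Tnfrsf1b* and for *Tnfrsf1a* and *Tnfrsf9*. They overlapped in WT 1 to WT 4 for *Tnfrsf4* and *Cd27*, *Tnfrsf1b* and *Tnfrsf18*, *Tnfrsf25* and *Tnfrsf9*, *Tnfrsf9* and *Tnfrsf14*, and *Tnfrsf14* and *Fas*.

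Ratios within a library were compared for 5 pairs of receptors. This sets aside most of the differences in scaling between libraries, but not all, because 1 FPKM was added to each value tested. The added 1 FPKM matters most for the scarce *Tnfrsf8*, where it understates the difference. Its plain FPKM ratio to *Tnfrsf1b* was 0.0244 to 0.0292 in KO 2 to KO 5 and 0.0594 to 0.0795 in WT 1 to WT 4. The difference of the mean log2 ratio of FPKM + 1 between KO 2 to KO 5 and WT 1 to WT 4 was -1.49 for *Tnfrsf9* over *Tnfrsf18*, -1.09 for *Tnfrsf9* over *Tnfrsf4*, -0.92 for *Tnfrsf8* over *Tnfrsf1b* and -0.64 for *Tnfrsf1b* over *Tnfrsf1a*. Each of these 4 had p = 0.0286 in a two-sided exact permutation test, the smallest p that 4 against 4 libraries allow (0.0357 adjusted over the 5 ratios). *Tnfrsf9* thus fell relative to its fellow costimulators OX40 and GITR, and *Tnfrsf8* relative to *Tnfrsf1b*, whose gene lies 20267 bp away. The ratio of *Tnfrsf18* to *Tnfrsf4*, which are also neighbours, was 0.847, 0.823, 0.735 and 0.754 in KO 2 to KO 5 and 1.13 in KO 1, against 0.741, 0.571, 0.573 and 0.511 in WT 1 to WT 4. It differed by 0.41 on the log2 scale and did not pass in the 8 libraries (exact permutation p = 0.0571, adjusted p = 0.0571). All 5 ratios passed with all 9 libraries, with adjusted exact permutation p of 0.0198 to 0.0317. Every pair holds a receptor already called lower in the 8 libraries, so these p-values are not separate from those calls. The share of other gene pairs that would pass was not computed.

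**Figure D4:**
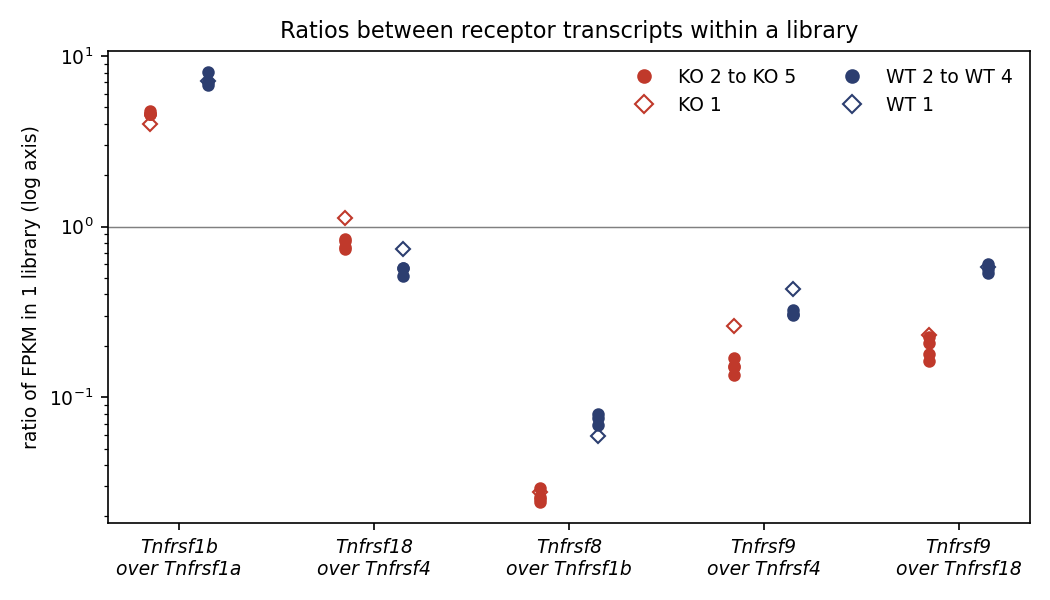
Ratio of FPKM between a pair of receptors within each library (log axis), KO left in red and WT right in blue, with diamonds for KO 1 and WT 1. For *Tnfrsf1b* over *Tnfrsf1a*, *Tnfrsf8* over *Tnfrsf1b*, *Tnfrsf9* over *Tnfrsf4* and *Tnfrsf9* over *Tnfrsf18* all 5 KO libraries lie below all 4 WT libraries, while *Tnfrsf18* over *Tnfrsf4* overlaps at KO 4 and WT 1.

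Of the 10 receptors, 7 are encoded between positions 145213463 and 156028895 of chromosome 4 (mm10), *Cd27* and *Tnfrsf1a* on chromosome 6 and *Fas* on chromosome 19. The 5 receptors that passed the test all lie on chromosome 4, and so do *Tnfrsf18* and *Tnfrsf14*, which did not pass. The nearest protein-coding genes that were not receptors of this set and passed the filter were *Sdf4*, *Park7*, *Vps13d*, *Plekhg5*, *Espn*, *Fam213b*, *Tapbpl* and *Tuba3a*, and none passed the test in the 8 libraries. *Sdf4*, which ends next to *Tnfrsf4*, had a log2 fold change of -0.23 (limma adjusted p = 0.443), and *Park7*, beside *Tnfrsf9*, of -0.51 (adjusted p = 0.126). *Plekhg5*, 534 bp from *Tnfrsf25*, had 0.47 (adjusted p = 0.0503). *Park7* and *Plekhg5* passed without KO 1 and WT 1, at -0.29 (adjusted p = 0.00042) and 0.34 (adjusted p = 0.00345).

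Over all 9 libraries, the genes whose log2(FPKM + 1) was most like that of *Tnfrsf8* among 12236 genes were *Penk* (Pearson r = 0.995), *Il2ra*, which encodes the IL-2 receptor alpha chain CD25 (0.991), and *Rcan3* (0.991). Those most like *Tnfrsf4* were *Tns1* (0.996), *Lad1* (0.994) and *Dnah7a* (0.994), and those most like *Tnfrsf9* were *Lta4h* (0.994), *Abcb9* (0.993) and *Rgs10* (0.992). *Tnfrsf1b* was closest to *Endod1* (0.994), *Ptp4a3* (0.993) and *Lap3* (0.993), and *Tnfrsf25* to *Rab14* (0.996), *Plcb3* (0.994) and *Slc20a1* (0.993). These values describe likeness over libraries that share their genotype, and that share the gap between KO 1 with WT 1 and the rest, so no test was attached to them.

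Of 12 genes for ligands that bind the 10 receptors, 8 passed the filter. Of these 8, 4 were lower in KO Tregs and 4 did not pass, beside 6.68% of all genes lower, and their median log2 fold change was -0.15, beside 0.01 over all genes. The 4 became 2 without KO 3, KO 4 or WT 2 and with limma-voom. The count was 3 with all 9 libraries and 5 without KO 1 and WT 1. Ligand genes higher in KO Tregs numbered 0 in the 8 libraries and 0 in all 9. That count became 1 without the filter, 2 without KO 1 and WT 1, and 2 with a term for them or with the replicate block. With limma-voom 3 were higher. Of all genes, 3.55% were lower with all 9 libraries, and 17.1% lower and 19.5% higher without KO 1 and WT 1. *Lta* encodes lymphotoxin alpha, a ligand of both TNF receptors. It measured 12.9, 13.7, 13.7 and 12.5 FPKM in KO 2 to KO 5 and 9.66 FPKM in KO 1, against 35.3, 58.4, 53.0 and 49.0 FPKM in WT 1 to WT 4, a log2 fold change of -1.79 (SE 0.15, limma adjusted p = 0.000274), or -1.87 with all 9 libraries and -1.93 without KO 1 and WT 1. *Cd160*, a partner of HVEM, measured 2.91, 2.79, 2.95 and 2.36 FPKM in KO 2 to KO 5 and 4.36 FPKM in KO 1, against 7.31, 6.84, 6.22 and 6.17 FPKM in WT 1 to WT 4 (-1.03, SE 0.09, adjusted p = 0.000351), or -0.92 with all 9 libraries and -0.98 without KO 1 and WT 1. KO and WT libraries did not overlap for either gene. *Tnfsf8*, the ligand of CD30, fell by 0.42 on the log2 scale (adjusted p = 0.0161, and 0.0232 with all 9 libraries), so that the transcripts of CD30 and its ligand were both lower. *Btla*, the other HVEM partner, fell by 0.26 (adjusted p = 0.0476) and did not pass with all 9 libraries (adjusted p = 0.241). *Tnf* averaged 14.1 ± 0.856 FPKM in KO 2 to KO 5 and 14.8 ± 3.52 FPKM in WT 1 to WT 4 (SD, n = 4 each) and did not pass (-0.04, adjusted p = 0.883). *Tnfsf14*, which encodes LIGHT, and *Fasl* had 0.52 and 0.33 and did not pass (adjusted p = 0.0963 and 0.108), but both were higher without KO 1 and WT 1, where *Tnf* was lower. The ligand of DR3, *Tnfsf15*, averaged 0.0686 FPKM in KO 2 to KO 5 and 0.29 FPKM in WT 1 to WT 4 and was below the filter. Also below it, *Tnfsf18*, the ligand of GITR, went the other way, at 0.694 FPKM in KO 2 to KO 5 and 0.0375 FPKM in WT 1 to WT 4. *Tnfsf4* (0.136 and 0.334 FPKM) and *Cd70* (0.179 and 0.407 FPKM) were below the filter too, with the lower mean in KO 2 to KO 5.

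Adaptors and NF-kappaB factors stand downstream of these receptors. All 34 genes of the list were tested, and 6 were lower, 1 higher and 27 did not pass, beside 6.68% and 6.58% of all genes, with a median of -0.11 beside 0.01 over all genes. The 6 became 2 when KO 2, KO 3, KO 4 or WT 3 was left out and 3 without WT 2, with all 9 libraries or with limma-voom, but 12 without KO 1 and WT 1 and 14 with all 9 libraries and the replicate block. These 6 were the NF-kappaB subunits *Nfkb1*, *Nfkb2*, *Rel* and *Relb* and the regulators *Tnip1* and *Tank*. *Nfkb2*, the precursor of the p52 subunit, measured 29.9, 30.2, 29.8 and 36.2 FPKM in KO 2 to KO 5 and 33.7 FPKM in KO 1, against 47.0, 45.3, 48.7 and 50.1 FPKM in WT 1 to WT 4 (-0.59, SE 0.09, limma adjusted p = 0.00404). *Relb*, its usual partner, fell by 0.53 (adjusted p = 0.0169), *Rel* by 0.51 (adjusted p = 0.0367) and *Nfkb1* by 0.36 (adjusted p = 0.029), whereas *Rela* had 0.15 (adjusted p = 0.402). *Tank* fell by 0.53 (adjusted p = 0.0112) and *Tnip1* by 0.50 (adjusted p = 0.0206). *Traf5*, an adaptor that binds OX40 and CD27, was the gene that rose (0.36, SE 0.07, adjusted p = 0.0173), and its KO and WT libraries did not overlap, although it did not pass without KO 2, KO 3, WT 2 or WT 3. In all 9 libraries *Nfkb2*, *Rel* and *Tank* were lower and *Traf5* higher. Without KO 1 and WT 1, 12 were lower and 7 higher, which again stands beside a background of 17.1% and 19.5%. *Tnfaip3*, an inhibitor of the pathway, ranged from 67.4 to 326 FPKM in KO 2 to KO 5, the highest being KO 5, and was 27.0 FPKM in KO 1, against 27.0 to 58.1 FPKM in WT 1 to WT 4 (1.28, adjusted p = 0.133).

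Of the genes of death domain signaling, *Casp8*, the initiator caspase at Fas and TNFR1, averaged 53.6 ± 2.09 FPKM in KO 2 to KO 5 and 71.0 ± 7.46 FPKM in WT 1 to WT 4 (SD, n = 4 each), with 59.9 FPKM in KO 1. Its log2 fold change was -0.40 (limma adjusted p = 0.029), and it did not pass with all 9 libraries (adjusted p = 0.0748). Without KO 1 and WT 1 *Casp8* was lower (-0.33, adjusted p = 0.000733), and *Ripk1* (0.22, adjusted p = 0.0139) and *Cflar* (0.14, adjusted p = 0.0236) were higher. The adaptors *Tradd* and *Fadd* had 0.04 and -0.17 in the 8 libraries and did not pass (adjusted p = 0.725 and 0.517). Of 6 tested genes for shedding or clearing TNF receptors, 1 was higher and 5 did not pass, beside 6.58% of all genes higher. The 1 was *Rhbdf2*, the cofactor of the TNF-releasing protease ADAM17, with 7.12, 8.02, 7.12 and 7.08 FPKM in KO 2 to KO 5 and 5.12 FPKM in KO 1, against 2.69, 4.36, 3.86 and 3.47 FPKM in WT 1 to WT 4 (0.87, SE 0.12, adjusted p = 0.00293, and 0.012 with all 9 libraries). *Adam17* itself had -0.07 (adjusted p = 0.527). Without KO 1 and WT 1, 2 of these genes were lower (*Adam10* and *Erap1*) and 1 higher, against 17.1% and 19.5% of all genes.

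Among other TNF receptor family genes, 16 of 18 were in the table, 6 were tested, 1 was lower and 1 higher, beside 6.68% and 6.58% of all genes. Without KO 1 and WT 1, or with a term for them, 2 were lower and 3 higher. The background of these fits was also higher, at 17.1% and 19.5% of all genes without them and 17.0% and 19.3% with the term. *Tnfrsf13b* encodes TACI, a receptor for BAFF and APRIL best known from B cells. It measured 11.6, 11.9, 11.4 and 11.8 FPKM in KO 2 to KO 5 and 19.0 FPKM in KO 1, against 35.4, 22.0, 23.7 and 23.1 FPKM in WT 1 to WT 4 (-1.07, SE 0.14, limma adjusted p = 0.00272, and 0.019 with all 9 libraries). Summed B cell marker RNA was also lower in KO 2 to KO 5, as given above, and its part in the value of *Tnfrsf13b* was not tested. *Tnfrsf26* measured 18.8, 19.2, 19.1 and 20.5 FPKM in KO 2 to KO 5 and 24.1 FPKM in KO 1, against 14.7, 13.6, 12.3 and 11.9 FPKM in WT 1 to WT 4 (0.53, SE 0.08, adjusted p = 0.00469, and 0.00906 with all 9 libraries). *Tnfrsf26* is a close paralog of *Tnfrsf22* and *Tnfrsf23*, so the split of reads among them is uncertain. *Tnfrsf10b*, the mouse TRAIL receptor, had 0.56 and did not pass (adjusted p = 0.0597). *Cd40* averaged 0.0337 FPKM in KO 2 to KO 5 and 0.177 FPKM in WT 1 to WT 4, below the filter. *Tnfrsf19*, also below the filter, went the other way, at 0.741 FPKM in KO 2 to KO 5 and 0.0589 FPKM in WT 1 to WT 4. The means of the other receptor genes below the filter went in both directions.

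**Figure D5:**
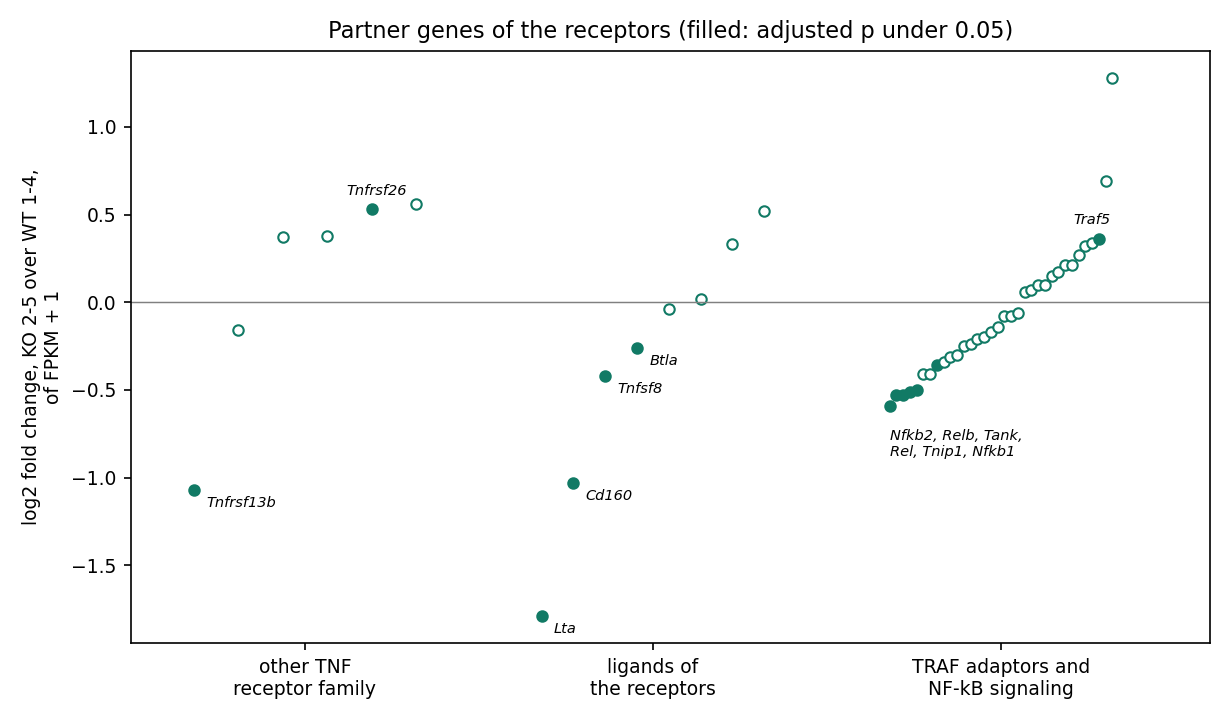
Log2 fold change of FPKM + 1, KO 2 to KO 5 over WT 1 to WT 4, for each tested gene of 3 lists, 1 point per gene and sorted by value within a list; filled points have an adjusted p under 0.05 and are named. *Lta* (-1.79) and *Cd160* (-1.03) stand lowest among the ligands, *Tnfrsf13b* (-1.07) among the other receptors, and the 6 lower NF-kappaB genes lie between -0.59 and -0.36.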

How the data were processed

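RNA of sorted splenic Tregs was sequenced as strand-specific paired-end libraries. Per the submitters' processing notes, CASAVA and fastp were used and reads were assigned to mm10. No aligner or counter is named in the sources used here. The authors deposited FPKM for 25500 entries in each of 9 libraries. Reads were recovered from FPKM, GENCODE gene lengths and 1 constant per library, and 95.6% of entries gave whole numbers to within 0.01 read. *Fas* did not give a single whole-read solution and was left out of the test on reads.

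KO 2 to KO 5 were compared with WT 1 to WT 4 by limma 3.58.1 under R 4.3.3. A mean-variance trend was fitted to log2(FPKM + 1), genes had to exceed 1 FPKM in 4 or more libraries, and a call needed a Benjamini-Hochberg adjusted p under 0.05 over all genes tested. This scale understates the change of low genes. Ratios used exact permutation tests. Tables and figures used Python 3.11.15, numpy 2.4.6, pandas 2.3.3, scipy 1.17.1 and matplotlib 3.10.9. Promoter sequences came from RefSeq. The receptors, gene lists and tests were chosen with earlier results of these data known. Named genes are the 10 receptors, the Treg markers, list members that passed or had the 3 smallest p, nearest neighbours, and the 3 genes most like a receptor. *Tnfaip3*, *Rela*, *Tnf*, *Tnfsf15*, *Adam17*, *Cd40*, the markers of other cell types, *Tradd*, *Fadd*, *Ripk1* and *Cflar* were named after their values were seen. So were *Tnfsf18*, *Tnfsf4*, *Cd70* and *Tnfrsf19*. Some members of the gene lists are not reported here.

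Pairing by replicate number was checked by the correlation of deviations from the genotype means. With all 9 libraries it was 0.872, 0.432, 0.315 and 0.475 for numbers 1 to 4, each above 0.1. The replicate block was fitted in the 8 and in the 9 libraries whatever this check gave, and the labels give no pairs. For numbers 2 to 4 this check cannot decide pairing, because KO 1 and WT 1 shift the genotype means for all other libraries. KO 5, which has no pair, also correlated at 0.344, 0.387 and 0.178 with WT 2 to WT 4. KO 2 and KO 3 correlated more with WT 4 than with their own number. Calls with the block in 9 libraries thus rest on pairs not shown for numbers 2 to 4. In the 8 libraries the correlation was 0.0455, -0.112 and 0.0047 for numbers 2 to 4. The comparison of KO 2 to KO 5 with WT 1 to WT 4 did not treat them as paired.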

Additional observations from a re-analysis of the deposited data

Results flagged for a closer look

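Each receptor was checked for a library far from the others of its genotype, by the gap of the highest or lowest library to its nearest neighbour as a share of the whole range. Of 30 checks (KO 1 to KO 5, KO 2 to KO 5 and WT 1 to WT 4 for each receptor) 8 exceeded Dixon's 95% critical value, where chance flags about 1 in 20. All 8 were in KO 1 or WT 1. KO 1 was the highest KO library for *Tnfrsf1b* (0.958 of the range), *Tnfrsf1a* (0.928), *Tnfrsf9* (0.778), *Fas* (0.754), *Tnfrsf8* (0.749) and *Tnfrsf18* (0.735). For *Tnfrsf25*, KO 1 was the lowest KO library (0.851) and WT 1 the lowest WT library (0.832). No receptor had a library apart among KO 2 to KO 5. Genes above 0 FPKM numbered 19010 in KO 1 and 18079 in WT 1, against 20420 to 21292 in the other 7 libraries. *Malat1* and the first principal component also set these libraries apart, and the part of these features in the receptor values was not tested.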

How the results depend on the processing

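Of the 10 receptors, *Tnfrsf4*, *Tnfrsf9* and *Tnfrsf8* kept their direction and passed in all 18 alternatives, with adjusted p up to 0.0118, 0.00361 and 0.00225. *Tnfrsf1b* passed in 15 (adjusted p 2.04e-05 to 0.121) and *Tnfrsf25* in 9 (2.06e-05 to 0.206). Receptors lower in KO Tregs numbered 4, 3 with all 9 libraries, 6 with a term for KO 1 and WT 1, 5 with the replicate block in 8 or in 9 libraries, and 3 to 4 when 1 library was left out. Receptors higher numbered 1 and became 0 with all 9 libraries (limma, *Tnfrsf25* at an unadjusted p of 0.03), without the filter and with limma-voom on recovered reads (*Tnfrsf25* at 0.0141), 2 with a term for KO 1 and WT 1, 2 with the replicate block in 8 or in 9 libraries, and 0 to 2 when 1 library was left out. Limma-voom moved the median of all genes to 0.11 on the log2 scale.

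Over all genes, 817 were lower and 805 higher. These counts became 437 and 395 with all 9 libraries, 2094 and 2377 with a term for KO 1 and WT 1, 1777 and 1891 with the replicate block, 1607 and 1841 with all 9 libraries and the block, 471 and 528 above 5 FPKM, and 387 to 2062 and 327 to 2359 when 1 library was left out, the highest without WT 1. In the 8 libraries, where the replicate numbers did not pair, the block also brought *Tnfrsf18* (adjusted p = 0.0166) and *Cd27* (0.0331) past the threshold.

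Changes of sign occurred only among receptors that did not pass. *Tnfrsf1a* (-0.07, and -0.15 to 0.06 when 1 library was left out) became 0.10 with all 9 libraries, 0.13 with the term, 0.06 without WT 1, 0.08 with the replicate block, 0.15 with all 9 libraries and the block and 0.02 with limma-voom. *Fas* (-0.02, and -0.07 to 0.10 when 1 library was left out) became 0.10 with all 9 libraries, 0.13 with the term, 0.02 without KO 2, 0.10 without WT 1, 0.06 with the replicate block and 0.11 with all 9 libraries and the block. *Tnfrsf14* (-0.02) became 0.07 with limma-voom and ranged from -0.24 to 0.12 when 1 library was left out, with 0.05 without KO 5, 0.01 without WT 2, 0.02 without WT 3 and 0.12 without WT 4. The causes were not tested. *Tnfrsf8* in KO Tregs rests on the fewest reads of the 9 receptors with recovered reads.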
